A study of Caenorhabditis elegans with 18 samples.

Results

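A strain of the nematode Caenorhabditis elegans that lacks meg-3 and meg-4 was set against the wild type, N2, by the messenger RNAs of whole young mothers. Of 42048 genes listed in the mRNA table, 27230 had a value above 0 in at least 1 library, and the 7616 whose 4 libraries average 10 or more are described here. Of these, 7444 are protein coding. The mutant was strain JH3475, meg-3(ax3055) meg-4(ax3052), called line 1 below. Both strains were collected as young mothers and fed HT115, an Escherichia coli strain used for feeding RNAi, carrying the empty vector L4440. Each group had 2 libraries, and the labels do not say whether these came from separate cultures. The p-values therefore cover the spread between libraries, which may be technical. The mutant is 1 strain and is not said to share its background with the control, so differences between strain backgrounds and effects of the 2 alleles cannot be told apart. Of the series' 18 libraries, the small RNA sets were used only where named. The question, as the series states it in its title, concerns small RNAs against genes of the RNAi machinery and the mRNAs of those genes.

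MEG-3 and MEG-4 are intrinsically disordered proteins that build P granules, the RNA-rich condensates of the C. elegans germline, and they are best known from the early embryo. P granules and the neighbouring mutator foci hold Argonaute proteins and the enzymes that make small RNAs, and these small RNAs silence matching transcripts and can be inherited. Genes of the RNAi pathway can themselves be silenced in this way.

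The mRNA libraries held 45231464 and 44269469 reads in N2 and 21994906 and 44895105 in line 1, so line 1 replicate 1 was the shallowest. Values are a scaled signal, that is reads divided by a factor per library, and they are not corrected for gene length, so levels are compared between strains and not between genes. Replicates correlated at 0.995 in N2 and 0.994 in line 1 on the log2 scale, and the median gene differed by 0.09 log2 between the N2 replicates and by 0.07 between the line 1 replicates. Yolk protein mRNAs summed to between 16050 and 23128 in the 4 libraries and 31 of 31 oocyte and maternal mRNAs passed the filter, as in egg-bearing adults. In whole animals fewer cells of a type and less RNA per cell cannot be told apart.

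With the values as deposited, 318 genes were higher in line 1 (4.18% of those tested) and 785 were lower (10.3%) at an adjusted p under 0.05 in limma's moderated test on log2(value + 1). After TMM scaling, which aligns the bulk of genes between libraries, 532 were higher (6.99%) and 140 lower (1.84%). The higher share of the calls thus went from 28.8% to 79.2%. The median change of all tested genes moved by 0.10 between the scalings, from -0.11 to -0.01 log2. The libraries of the 2 strains did not overlap at 73.9% of the tested genes. Under both scalings 310 genes were higher (4.07%) and 140 were lower (1.84%), and the account below leads with these. Their median change was 0.37 log2 for the higher and -0.48 for the lower genes, and 305 of the 450 changed by less than 0.5 log2. Changes of 2-fold or more were called at 20 higher and 14 lower genes. The authors' deposited table, by its own adjusted p, called 384 genes higher and 831 lower, and these include 275 of the 310 and 140 of the 140 genes.

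Each fit that leaves out a library has 1 library in 1 strain, so the spread comes from the 2 libraries of the other strain and the lone library is assumed to vary like them. Without N2 replicate 1, 17 genes were called higher and 7 lower, and without N2 replicate 2 the counts were 24 and 11. Without line 1 replicate 1 they were 472 and 626, and without line 1 replicate 2 they were 328 and 518. The log2 changes of all genes correlated at 0.948 or more with those from all libraries in each of the 4 cases. limma's prior degrees of freedom, which set how far the spread is shared among genes, were 5.63 with all libraries, 2.96 and 2.93 without N2 replicates 1 and 2, and without bound when a line 1 library was left out. The counts were lowest without an N2 library, where that estimate was also lowest, but no fit held it fixed, so its part was not tested. A call lost in 1 of these fits, here and below, does not by itself show a weaker change or a fault of the library left out. Some log2 changes did move. That of T22B7.7 was 1.57 with all libraries, 0.96 without N2 replicate 1 and 2.18 without N2 replicate 2. There were 16 higher and 6 lower genes that were called in all 4 cases and under both scalings. The higher ones, in order of change, were scrm-4, citk-1, pmk-2, T10D4.6, B0511.11, pmk-3, faah-1, C06A6.2, F36D3.1, pmk-1, sax-2, T04D3.5, F10G7.10, T28C6.7, epg-5 and osgn-1. The lower ones were meg-3, meg-4, fbxa-192, pdzd-8, gna-2 and ttr-24.

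**Figure D1:**
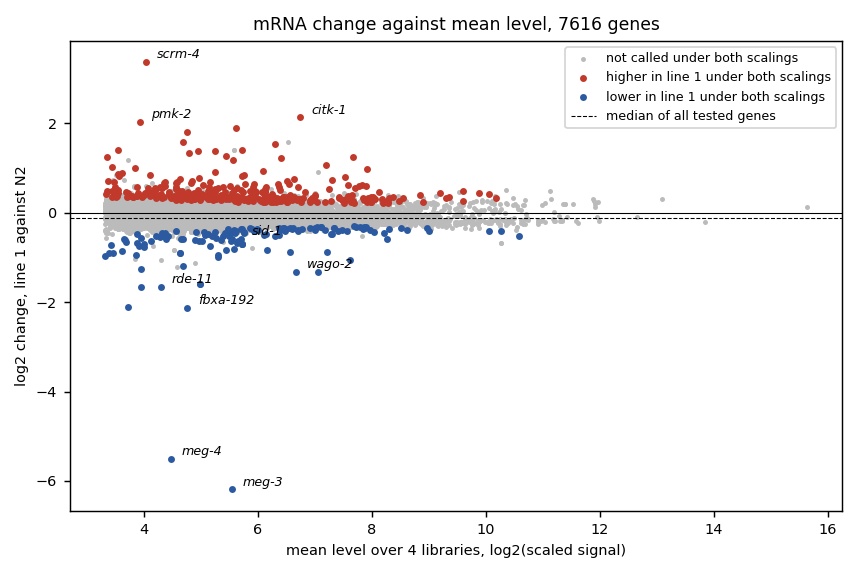
Each point is 1 of the 7616 tested genes, with the mean level over the 4 libraries on the horizontal log2 axis and the log2 change of line 1 against N2 on the vertical axis. Red and blue points are the 310 higher and 140 lower genes called under both scalings, the solid line marks no change and the dashed line the median of all tested genes at -0.11. A few genes lie far from the bulk, with meg-3 and meg-4 lowest and scrm-4 highest.

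The targeted genes were almost absent from the mutant. meg-3 had a signal of 92.3 and 94.5 in the N2 libraries and 0.312 and 0.283 in the line 1 libraries, a change of -6.19 log2 (SE 0.10, adjusted p = 9.09e-08). meg-4 had 45.3 and 43.6 in N2 and was listed at 0 in both line 1 libraries, which is at least 1012-fold lower when the line 1 group is set at 3 reads.

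A few mRNAs of the RNAi pathway fell in line 1. Among 12 tested genes of double-stranded RNA uptake and RNAi, 3 fell under both scalings and none rose, against 1.84% and 4.07% of all genes. The list's median change of -0.11 was the same as that of all genes. rde-11 encodes a RING-finger protein that works with RDE-10 on mRNAs targeted by double-stranded RNA. Its signal was 30.1 and 30.8 in N2 and 8.28 and 9.64 in line 1, 3.40-fold lower (log2 change -1.66, SE 0.10, adjusted p = 0.000125, and 0.00104 under TMM). Both adjacent protein-coding genes of rde-11 on chromosome IV, B0564.2 and fask-1, were lower under both scalings. B0564.2 had 20.5 and 23.6 in N2 against 3.83 and 4.88 in line 1 (log2 change -2.11, SE 0.13, adjusted p = 0.000131). The change at fask-1 was -0.37 log2. rde-11 and B0564.2 are among the leading genes, which were chosen for no overlap between strains. B0564.2 overlaps best-1 and best-2 in the annotation used here, and it is not known whether strand was used in counting.

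sid-1 encodes the channel that lets double-stranded RNA into cells. It had a signal of 62.4 and 63.6 in N2 and 40.03 and 43.59 in line 1, a log2 change of -0.58 (SE 0.07, adjusted p = 0.00612, and 0.0173 under TMM). rde-4 encodes the double-stranded RNA-binding partner of Dicer and changed by -0.41 (SE 0.06, adjusted p = 0.0117), from 187 and 200 to 147 and 144. The groups did not overlap for either gene, as for 73.9% of all tested genes. The other 9 tested members, among them rde-1, dcr-1, rde-10 and rsd-6, did not pass the test under either scaling.

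Of 19 tested Argonaute genes 2 rose and 1 fell under both scalings, against 4.07% and 1.84% of all genes. wago-2, which the annotation used here lists as a pseudogene, fell from 147 and 146 to 54.1 and 62.8 (log2 change -1.32, SE 0.08, adjusted p = 0.000125). alg-3 and alg-4, the Argonautes of sperm development, rose from 15.4 and 14.2 to 23.8 and 20.5 (log2 change 0.55, adjusted p = 0.0265) and from 19.44 and 17.64 to 26.2 and 24.1 (0.42, adjusted p = 0.0341). hrde-1, the nuclear Argonaute of germline inheritance, had 960 and 973 in N2 and 729 and 774 in line 1. Its log2 change was -0.36 (SE 0.07, adjusted p = 0.0278), and the call was lost under TMM (adjusted p = 0.0518). prg-1, csr-1 and wago-1 did not pass the test.

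eri-6 and eri-7 lie side by side on chromosome I and are joined by trans-splicing into the mRNA of 1 helicase of the endogenous small RNA pathway. eri-6 went from 19.8 and 20.8 to 12.42 and 11.62 (log2 change -0.71, adjusted p = 0.00709) and eri-7 from 57.8 and 64.6 to 39.2 and 39.4 (-0.62, adjusted p = 0.00612). They were the 2 lower genes among 13 tested members of the ERI complex and 26G pathway, and alg-3 and alg-4 were the 2 higher ones. Under both scalings 1.84% of all genes were lower and 4.07% higher.

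The remaining small RNA lists had medians below that of all genes, and among their calls as deposited only 3 of the P granule list held under TMM. Among 14 tested genes of the mutator complex and RNA-dependent RNA polymerases, 2 were lower as deposited (against 10.3% of all genes) and 0 under TMM, and the list median was -0.17. mut-16, the scaffold of mutator foci, changed by -0.24 (adjusted p = 0.0386, and 0.115 under TMM), and the endonuclease gene rde-8 by -0.26 (adjusted p = 0.0483, and 0.129 under TMM). Of 17 genes of nuclear RNAi and heterochromatin, with a median of -0.20, 4 were lower as deposited and 0 under TMM, with hpl-2, a heterochromatin protein gene, at -0.26. Of 16 piRNA biogenesis genes, all with a change below 0 and a median of -0.22, the counts were 6 and 0, with tost-1 at -0.38. Among 19 P granule genes, at a median of -0.19, 3 were lower under both scalings (against 1.84% of all genes). Of these meg-3 and meg-4 were deleted by design, and deps-1 went from 267.5 and 262.1 to 212.6 and 203.6 (log2 change -0.35, adjusted p = 0.0177, and 0.0440 under TMM). meg-1 changed by -0.33 (adjusted p = 0.0283) and lost its call under TMM (0.0819), while pgl-1, glh-1 and znfx-1 did not pass the test.

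The 10 genes rde-11, B0564.2, sid-1, rde-4, wago-2, eri-6, eri-7, alg-3, alg-4 and hrde-1 kept their direction without each library in turn, and no log2 change moved by more than 0.14. Without N2 replicate 1 or 2 all 10 lost their calls, with adjusted p-values between 0.0575 and 0.167. Without line 1 replicate 1, hrde-1 lost its call (adjusted p = 0.0529), and without line 1 replicate 2 none did. Of 12 further genes of the small RNA and P granule lists called as deposited, all lost their calls without either N2 library. Some of the 12, among them mut-16, rde-8 and hpl-2, also lost theirs without line 1 replicate 1, at log2 changes of -0.21, -0.28 and -0.28. Without line 1 replicate 2 rde-8 and hpl-2, both at -0.24, were again among the genes that lost theirs.

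**Figure D2:**
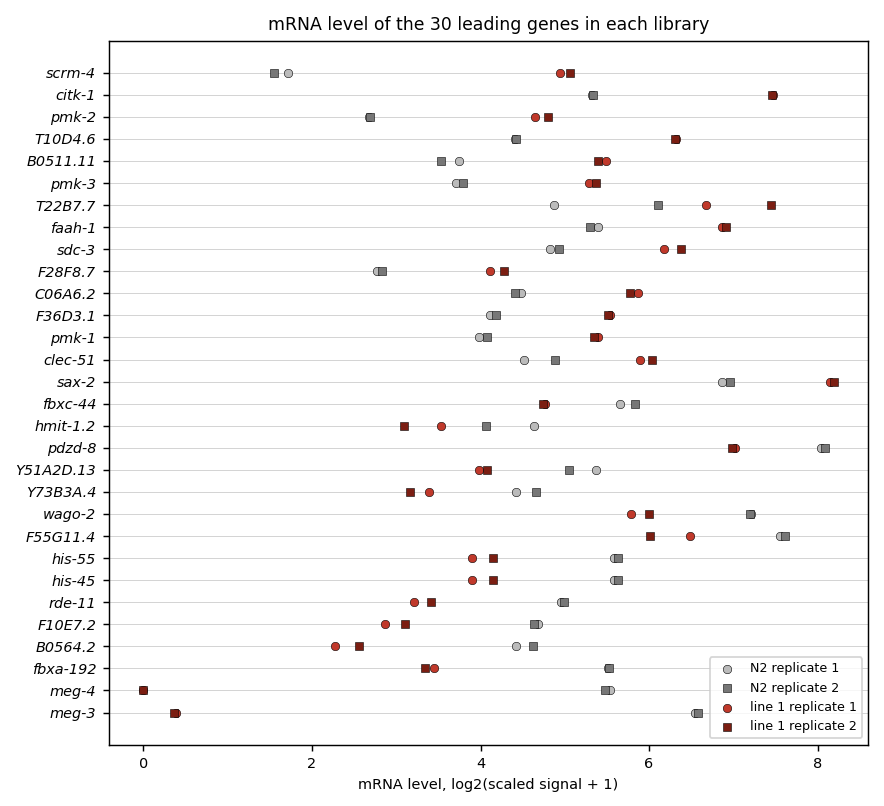
Signal of 30 leading genes, 15 that rose and 15 that fell, on a log2(scaled signal + 1) axis, with circles for replicate 1 and squares for replicate 2 of N2 (grey) and line 1 (red). The genes were chosen for no overlap between strains, and T22B7.7 and hmit-1.2 have the widest spread within a strain.

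Small RNAs of line 1 had been counted over the same genes, in mixed populations on the bacterium NA22 and so at another stage and on other food. Of 6821 genes tested there, 207 had more small RNAs (3.03%) and 939 fewer (13.8%) in line 1 as deposited, and under TMM the shares were 4.91% and 5.94%. Among the 4720 genes tested in both tables, 28 had a lower mRNA and more small RNAs, which is 4.36% of the 642 genes with a lower mRNA and 32.2% of the 87 with more small RNAs. Of the 4720 genes 1.84% had more small RNAs and 13.6% a lower mRNA. With both tables under TMM the count was 25, or 24.04% of the genes with a lower mRNA and 14.04% of those with more small RNAs, against backgrounds of 3.77% with more small RNAs and 2.203% with a lower mRNA. A higher mRNA with fewer small RNAs was found at 35 genes, 35.4% of the 99 genes with a higher mRNA and 9.19% of those with fewer small RNAs, against 8.07% of the 4720 genes with fewer small RNAs and 2.097% with a higher mRNA. Under TMM that count was 33, or 21.2% and 27.97%, against 2.5% and 3.31%. Both readouts were higher at 10 genes, 10.1% of those with a higher mRNA against the 1.84% background, and under TMM at 13 (8.33% against 3.77%). Both were lower at 30 genes, 4.67% of those with a lower mRNA against 8.07%, and under TMM at 4 (3.85% against 2.5%). The 99 genes with a higher mRNA under both scalings had a median small RNA change of -0.32 log2, with 52 of them above the median of all 4720 genes at -0.36. The genes with a lower mRNA under both scalings had a median of -0.25, with 65 of them above it.

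B0564.2 and rde-11 led the genes with a lower mRNA and more small RNAs. Small RNAs at B0564.2 were 49.1 and 51.6 RPM (reads scaled to a common library total) in N2 and 2919 and 2891 in line 1 (log2 change 5.82, adjusted p = 6.93e-18, and 0.000182 under TMM). At rde-11 they went from 418 and 359 to 3962 and 3573 RPM (3.28, adjusted p = 0.000483 under TMM). The small RNA changes at rde-11, B0564.2 and sid-1 were already known from earlier small RNA results and are not independent findings. Others of this kind were fbxc-44, an F-box gene, at 68.8 and 72.8 against 192.5 and 176.3 RPM, with an mRNA change of -0.998 log2, and linc-6, a long intergenic RNA, at -0.86. bath-15 (-0.60), hint-3 (-0.59), W06A11.4 (-0.57) and set-23 (-0.56) followed, and W06A11.4 lost its mRNA call under TMM (adjusted p = 0.0656). sid-1 had more small RNAs in line 1, at 480 and 440 against 707 and 615 RPM, which passed under TMM (adjusted p = 0.0143) and not as deposited (0.0816).

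The opposite pattern was led by scrm-4, the gene with the largest rise. Its small RNAs went from 127 and 148 to 22.6 and 30.8 RPM (log2 change -2.33, adjusted p = 0.00823 under TMM). citk-1 went from 244 and 220 to 91.7 and 87.4 RPM and pmk-3 from 487 and 383 to 150.7 and 107.2 RPM. The loss at citk-1 was already known from earlier small RNA results and is not an independent finding. Further genes were B0511.11, F28F8.7, C18D4.6, Y20F4.4 and ugt-64, with mRNA changes of 1.80, 1.396, 1.24, 1.01 and 0.83 log2. C18D4.6 was the only tested gene of a list of 18 ERGO-1 class targets, genes that make abundant 26G-dependent small RNAs, since the others fell below the filter.

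Both readouts rose at faah-2, where small RNAs went from 8.78 and 2.88 to 48.4 and 48.1 RPM and the mRNA changed by 1.23 log2. F10G7.10, T28C6.7, epg-5, unc-73, acdh-1, ugt-22 and R102.4 were further genes of this kind, with mRNA changes from 1.06 down to 0.34. Both fell at meg-4, the deleted gene, and at pdzd-8, hmit-1.2, nhr-70, Y69H2.7, vet-6, ints-5 and M02D8.3. Across the 4720 genes the Spearman correlation of the 2 changes was -0.06, and across the 28, 35, 10 and 30 genes called in both tables it was -0.34. These are descriptions across genes, which are not independent replicates, and the 2 tables share only the strains.

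Of the 31 mRNAs named in these lists of 8, 8, 8 and 7 genes, 23 had no call in at least 1 of the fits without an N2 library. Those that kept it in both were scrm-4, citk-1, B0511.11, pmk-3, F10G7.10, T28C6.7, epg-5 and pdzd-8. None lost its call without a line 1 library.

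**Figure D3:**
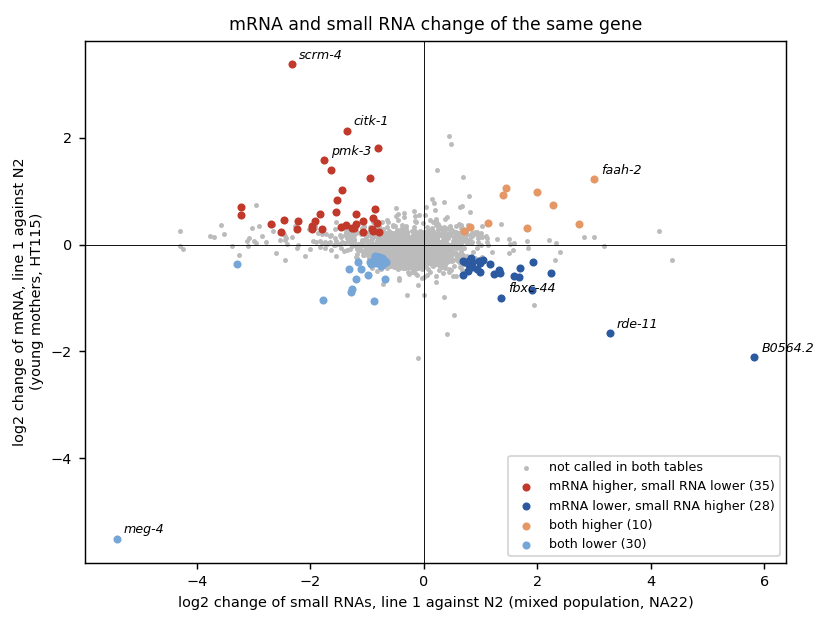
Each point is 1 of the 4720 genes tested in both tables, with the log2 change of small RNAs in mixed populations on NA22 on the horizontal axis and the log2 change of mRNA in young mothers on HT115 on the vertical axis, both for line 1 against N2. Coloured points were called in both tables as deposited, 28 of them with a lower mRNA and more small RNAs and 35 with a higher mRNA and fewer small RNAs.

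The gene with the largest rise was scrm-4, of the phospholipid scramblase family. Its signal was 2.28 and 1.92 in N2 and 29.7 and 32.4 in line 1, 14.8-fold higher (log2 change 3.37 on the log2(value + 1) scale, SE 0.11, adjusted p = 6.76e-06). The gene overlaps kpc-1 in the annotation, and reads of the 2 cannot be told apart if strand was not used. citk-1, named for citron kinase, rose from 39.1 and 39.4 to 177 and 175, 4.47-fold (log2 change 2.13, SE 0.06, adjusted p = 1.97e-06). In both genes the replicates of a strain lay close together.

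T10D4.6 rose from 20.3 and 20.5 to 78.6 and 78.0 (log2 change 1.89, adjusted p = 9.16e-06), and B0511.11 rose from 12.4 and 10.6 to 44.03 and 41.08 (1.80, adjusted p = 8.71e-05). sdc-3, a gene of sex determination that helps to bring the dosage compensation complex to the X chromosomes of hermaphrodites, went from 27.4 and 29.5 to 71.1 and 82.4 (1.397, SE 0.09, adjusted p = 0.000143). sax-2, a Furry family gene known for its role in the shape of sensory neurons, rose from 115 and 123 to 281 and 291 (1.26, adjusted p = 5.81e-05). F28F8.7 (1.396), C06A6.2 (1.37) and F36D3.1 (1.37) were also among the leaders. T22B7.7 spread widely, at 28.4 and 67.6 in N2 and 100.9 and 173.6 in line 1. Its log2 change was 1.57 with an adjusted p of 0.0401, it lost its call under TMM (0.0562), and the change was 0.96 without N2 replicate 1 and 2.18 without N2 replicate 2. Of the 10 genes of these 2 paragraphs, F28F8.7 and T22B7.7 lost their calls without either N2 library, with adjusted p-values of up to 0.130. sdc-3 lost its call without N2 replicate 1 (0.0672).

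The p38 mitogen-activated protein kinase genes rose together with their neighbours. pmk-1, pmk-2 and pmk-3 form an operon on chromosome IV, and pmk-1 is best known for its role in innate immunity. pmk-2 went from 5.40 and 5.45 to 23.95 and 26.84 (log2 change 2.04, SE 0.10, adjusted p = 5.90e-05), pmk-3 from 12.05 and 12.87 to 37.9 and 40.5 (1.58, adjusted p = 8.71e-05) and pmk-1 from 14.9 and 15.9 to 40.9 and 39.6 (1.33, adjusted p = 0.000127). These 3 genes are among the leaders chosen for no overlap between strains, as found at 73.9% of all tested genes. The next tested genes on the chromosome were higher as well. These were faah-1 and faah-2, which encode fatty acid amide hydrolases, and the C-type lectin gene clec-51, with changes of 1.55, 1.23 and 1.26. faah-1 and clec-51 overlap, so their reads may be shared. Without N2 replicate 1 faah-2 and clec-51 lost their calls, with adjusted p-values between 0.0672 and 0.0757, and without N2 replicate 2 the call at faah-2 was lost (0.146).

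Called neighbours of this kind were counted over the whole genome. Among the 310 higher genes (4.07% of all tested genes) 32 lay in 12 runs of adjacent tested genes. Among the 140 lower genes (1.84%) 33 lay in 13 runs. How many runs such shares would give without any clustering was not tested, and some members of runs overlap or share values. The longest was a run of 8 lower genes on chromosome V, made of ints-5, ttr-24, ttr-25, ttr-26, Y51A2D.13, txt-14, grdn-1 and nhr-70. The ttr genes encode transthyretin-like proteins, ints-5 a subunit of the Integrator complex and nhr-70 a nuclear hormone receptor. Of all 28 tested ttr genes 3 rose and 3 fell under both scalings, against 4.07% and 1.84% of all genes, and their median change was 0.13. ttr-24 went from 122 and 126 to 67.3 and 65.8 (log2 change -0.88, SE 0.06, adjusted p = 0.000171), and Y51A2D.13 from 40.4 and 32.1 to 14.8 and 15.9 (-1.18, adjusted p = 0.00189). The other members changed by -0.64 to -0.91. All 8 were called under both scalings and in both fits without a line 1 library, and ttr-24 alone also in both fits without an N2 library, where the calls lost had adjusted p-values of 0.0708 to 0.130. A run of 6 higher genes on chromosome V held pud-1.1, pud-1.2, pud-2.1, pud-2.2, pud-3 and pud-4, a family known from insulin signalling mutants. pud-3 went from 196 and 161 to 281 and 268 (log2 change 0.62, adjusted p = 0.0117) and pud-4 from 54.2 and 41.5 to 77.1 and 72.9 (0.65, adjusted p = 0.0227). pud-1.1 and pud-1.2 had identical values, as had pud-2.1 and pud-2.2, so each such pair counts as 1 measurement, and all 6 lost their calls without either N2 library. pud-2.1 and pud-2.2 also lost theirs without line 1 replicate 2 (adjusted p = 0.0594). Genes in runs were picked after their values were seen.

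Among the lower genes fbxa-192, an F-box gene of a large family of substrate adaptors for ubiquitin ligases, had the largest log2 change after the deleted genes, while B0564.2 fell more by the plain ratio of means (5.05-fold). It went from 44.5 and 45.2 to 9.88 and 9.14, 4.71-fold lower (log2 change -2.12, SE 0.08, adjusted p = 1.66e-05). F10E7.2 fell from 24.6 and 23.9 to 6.28 and 7.63 (-1.67, adjusted p = 0.000170), F55G11.4 from 187 and 195 to 88.5 and 63.7 (-1.34) and Y73B3A.4 from 20.5 and 24.2 to 9.44 and 7.96 (-1.27). pdzd-8, a gene for a PDZ-domain protein, went from 262.2 and 271.5 to 128.7 and 125.3 (-1.07, SE 0.06, adjusted p = 8.71e-05). No overlap between strains was a condition for choosing these genes. hmit-1.2, a proton and myo-inositol transporter gene, was at -1.04 as deposited (adjusted p = 0.0291) and lost its call under TMM (0.0562). Of fbxa-192, F10E7.2, F55G11.4, Y73B3A.4, pdzd-8, hmit-1.2 and fbxc-44, only fbxa-192 and pdzd-8 kept their calls without each N2 library, and the calls lost had adjusted p-values of 0.0575 to 0.134.

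F-box genes as a family held 23 tested members of 322 listed. Of these 6 fell and 1 rose under both scalings, against backgrounds of 1.84% and 4.07% of genes, and the family median was -0.29. fbxa-107 (-0.97) and fbxa-108 (-0.76) were further examples, and fbxa-108 is the neighbour of fbxa-192. Among 21 tested genes of the MATH and BTB families, which also serve ubiquitin ligases, bath-15 (-0.60) and bath-2 (-0.50) fell and bath-38 (0.66) rose under both scalings. The Skp1-related gene skr-2 fell, at -0.35. All of these but fbxa-192 lost their calls without either N2 library.

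Histone mRNAs were on the lower side. Of 44 tested histone genes 21 were lower as deposited and 11 under both scalings, against 10.3% and 1.84% of all genes, and none was higher. Because gene copies share reads, the 44 genes hold only 35 distinct sets of values, of which 17 were lower as deposited and 8 under both scalings. The family median was -0.32, and 41 of 44 changes were below 0. his-45 and his-55 had the same values, 46.97 and 48.74 in N2 and 13.9 and 16.7 in line 1 (log2 change -1.59, SE 0.10, adjusted p = 0.000130). his-10, his-14 and his-26, again with shared values, went from 60.5 and 71.5 to 41.3 and 38.7 (-0.70, adjusted p = 0.00730). These 5 genes lost their calls without either N2 library, with adjusted p-values of 0.0661 to 0.105.

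Maternal and early embryonic mRNAs were lower as deposited. Of 31 oocyte and maternal mRNAs 17 were lower as deposited, at a list median of -0.26, and 1 under TMM, at -0.15. The shares of all genes were 10.3% and 1.84%, so the count under TMM is near the background. The summed signal of the list was 15912 and 15244 in N2 and 12884 and 13028 in line 1, without overlap. The exception under TMM was puf-5, an RNA-binding protein gene of oocytes, which went from 598 and 573 to 436 and 449 (log2 change -0.40, adjusted p = 0.0137, and 0.0364 under TMM). The eggshell gene cpg-2 (-0.38), the maternal RNA-binding protein gene spn-4 (-0.37) and oma-1 (-0.36), which drives oocyte maturation, lost their calls under TMM. gna-2, which makes the precursor of eggshell chitin, lay outside these lists and went from 192.5 and 193.1 to 106.1 and 102.8 (-0.88, SE 0.06, adjusted p = 0.000149), and it kept its call in all fits that left out a library. Of 24 genes of the early zygotic list 5 passed the filter. Of these 4 fell and 1 rose under both scalings, against 1.84% and 4.07% of all genes. vet-1, vet-2 and vet-6, named for very early transcripts, were at -0.61, -0.59 and -0.65, and sdz-27 rose by 0.50. The Y-box gene cey-2 was at -0.41, and whether its mRNA is zygotic in origin was not tested. It had 1353 and 1471 in N2, most of the list's summed signal of 1516 and 1641. Of 24 genes of germline sex and meiosis 7 were lower as deposited and 0 under TMM, with syp-2 of the synaptonemal complex at -0.38 and gld-1 at -0.33. Apart from gna-2, all genes named in this paragraph lost their calls without N2 replicate 1 and without N2 replicate 2. gld-1 also lost its call without line 1 replicate 1 (adjusted p = 0.0677), and cpg-2 without line 1 replicate 2 (0.0530).

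Sperm mRNAs gave few calls. Their median change was 0.07 log2, against -0.11 for all genes, and 13 of 16 lay above the median of all genes. Of these 16 genes 1 was higher and 1 lower as deposited, against 4.18% and 10.3% of all genes. They were gsp-3, a sperm phosphatase gene, at 0.36 (adjusted p = 0.0488) and nspd-3 at -0.45 (adjusted p = 0.0473, and 0.0953 under TMM). Both lost their calls without either N2 library, and gsp-3 also without line 1 replicate 1 (adjusted p = 0.0927). None of 21 tested major sperm protein genes was called under either scaling. Their summed signal was 479 and 510 in N2 and 500 and 444 in line 1, so the groups overlapped. Yolk protein genes were not called under either scaling, with changes of 0.31 to 0.52 log2 at all 6 genes. vit-1 had 1056 and 1062 in N2 and 1245 and 1852 in line 1 (adjusted p = 0.0629), the 2 line 1 libraries differing more from each other than the N2 libraries did.

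**Figure D4:**
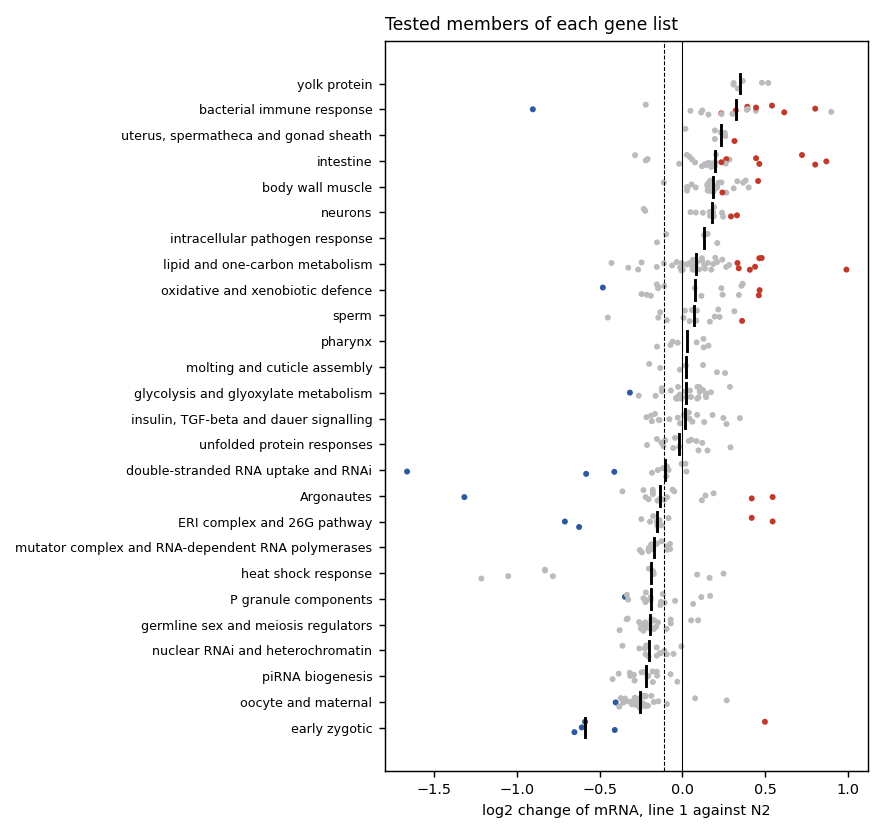
Each row is a gene list with at least 5 tested members and each point a tested member, placed by its log2 change of mRNA. Red and blue points are genes called higher and lower under both scalings and grey points the others, short black bars are list medians, and the dashed line is the median of all tested genes. The deleted genes meg-3 and meg-4 lie off the scale and are left out of the P granule row. Intestine, muscle and immune lists lie to the right of the dashed line and oocyte and early zygotic lists to the left.

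Genes of the intestine were on the higher side. Of 29 tested intestinal genes 7 rose under both scalings and none fell, against 4.07% and 1.84% of all genes, and the list median was 0.20. Digestive proteases, lysozymes and saposins, a family that overlaps this list, had 7 of 34 higher (against 4.07%) under both scalings and none lower. asp-12, an aspartic protease gene, went from 6.85 and 9.27 to 16.7 and 14.2 (log2 change 0.87, adjusted p = 0.0192). The neighbouring lysozyme genes lys-1 and lys-2 rose by 0.45 and 0.80, lys-2 from 111.6 and 158.7 to 227 and 239. The cathepsin B gene cpr-4 went from 143 and 97.8 to 192.3 and 199.8 (0.72, adjusted p = 0.0322). The strains did not overlap in these genes, as in 73.9% of all tested genes, although N2 replicates of lys-2 and cpr-4 were spread. Of the 5 genes asp-12, asp-13, lys-1, lys-2 and cpr-4, all lost their calls in at least 1 of the fits without an N2 library, with adjusted p-values of up to 0.112, and cpr-4 was at 0.45 without N2 replicate 2.

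Of 19 tested genes of the response to bacteria 7 rose and 1 fell under both scalings, against 4.07% and 1.84% of all genes, and the list median was 0.32. irg-7 and irg-8, infection response genes, went from 985 and 1079 to 1240 and 1342 (log2 change 0.32) and from 371 and 430 to 511.4 and 538.8 (0.39). dod-24, an immune effector gene repressed by DAF-16, fell from 28.5 and 37.2 to 14.78 and 19.39 (-0.90, adjusted p = 0.0202). C17H12.8 had 70.6 and 114 in N2 and 135 and 211 in line 1, a change of 0.90 (adjusted p = 0.0495) that lost its call under TMM (0.0661) and was 0.56 without N2 replicate 1. Of 36 C-type lectin genes 8 rose and 1 fell under both scalings, with clec-166 at 0.70, clec-67 at 0.62 and clec-223 at 0.59. As deposited 3 of the 36 were lower (8.33%), against 10.3% of all genes. Of the genes of this paragraph, irg-7 also lost its call without line 1 replicate 2 (adjusted p = 0.131), and all lost theirs without either N2 library, where clec-166 was at 0.45 without N2 replicate 2.

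Families of detoxification and fat metabolism differed in their calls, against 4.07% of all genes higher and 1.84% lower under both scalings. As deposited 10.3% of all genes were lower, which is the share to set beside the as-deposited counts below. Of 29 UDP-glucuronosyltransferase genes 8 rose under both scalings and none fell, led by ugt-64, from 40.8 and 35.2 to 72.9 and 63.3 (log2 change 0.83, SE 0.10, adjusted p = 0.00526), and ugt-44 (0.64). Of 15 cytochrome P450 genes 3 rose, among them cyp-35A2 (0.46) and cyp-34A8 (0.47), and 1, cyp-31A5, fell (-0.35), with 2 lower as deposited. Of 14 glutathione S-transferase genes 1, gst-10, rose under both scalings (0.47), while 2 were lower as deposited and 0 under TMM. The mitochondrial thioredoxin gene trx-2 fell (-0.48). Among 42 genes of lipid and one-carbon metabolism 7 rose under both scalings and none fell, while 2 were lower as deposited. fat-5, a fatty acid desaturase gene, went from 7.94 and 10.9 to 19.3 and 19.7 (0.99, adjusted p = 0.0100), and acs-22, an acyl-CoA synthetase gene, from 55.9 and 61.3 to 79.1 and 85.1 (0.48). sbp-1, the SREBP transcription factor gene, rose by 0.47, dgat-2, a triglyceride synthesis gene, by 0.44, and acdh-1, an acyl-CoA dehydrogenase gene that responds to diet, by 0.41. The glycolytic gene gpd-1 fell (-0.32), the only one of 31 genes of glycolysis and glyoxylate metabolism called under both scalings. Each gene of this paragraph lost its call without either N2 library, with adjusted p-values of up to 0.169, and sbp-1 also without line 1 replicate 2 (log2 change 0.31, adjusted p = 0.0754). The change at ugt-44 was 0.42 without N2 replicate 1.

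Genes of other somatic tissues lay above the median of all genes, with few calls. Of 30 body wall muscle genes 29 had a change above 0, at a median of 0.18, but 2 were called higher as deposited and 6 under TMM. Of all genes 4.18% were higher as deposited, 6.99% under TMM and 4.07% under both. egl-19, the L-type calcium channel of muscle, rose from 18.34 and 18.02 to 23.82 and 26.97 (log2 change 0.46, adjusted p = 0.0295) and unc-52, a perlecan gene, by 0.24. Of 15 neuronal genes 2 rose under both scalings, the proprotein convertase gene egl-3 (0.33) and the synaptic gene unc-13 (0.29). In the same list 1 gene was lower as deposited, against 10.3% of all genes, and 0 under TMM. Of 7 genes of the uterus, spermatheca and gonad sheath 1 rose under both scalings, the innexin gene inx-9 (0.32). Of 37 tested cuticle collagen genes 2 rose, col-95 (0.54) and col-101 (0.45), a share of 5.41% near the 4.07% of all genes. Among 15 patched and hedgehog-related genes 1 was higher as deposited, ptc-3 (0.32), and 6 under TMM. The 8 genes named here lost their calls without either N2 library. Without line 1 replicate 1 so did egl-3, unc-13, inx-9 and ptc-3, with adjusted p-values of 0.0638 to 0.119, and without line 1 replicate 2 so did unc-52 (0.196) and unc-13 (0.118). The part of tissue proportions in these shifts was not tested.

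Several large groups gave calls near the background or none. Of 75 ribosomal protein genes 9 were lower as deposited (12%, against 10.3% of all genes). Under TMM 1 was lower, rps-27 (-0.36 as deposited, call lost without either N2 library), and 1 was higher. As deposited 73 of 75 changes were below 0, and the median was -0.21 as deposited and -0.11 under TMM. No gene of the unfolded protein response list (15 tested) was called, and of the 20 genes of insulin, TGF-beta and dauer signalling none was as deposited and 1 was under TMM. None of 12 tested heat shock genes was called either, and these hold only 11 distinct sets of values. Of the 12 genes 5, hsp-16.2, hsp-16.41, hsp-70, F44E5.4 and F44E5.5, were lowest in line 1 replicate 2. hsp-16.41, picked after its values were seen, had 36.8 and 22.3 in N2 and 33.2 and 3.77 in line 1, and hsp-70 had 81.2 and 52.5 against 88.5 and 15.6. In both genes line 1 replicate 2 was lowest and the strains overlapped, and their part in other results was not tested.

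Calls were unevenly spread over the chromosomes. On chromosome X 25 of 816 tested genes were lower as deposited (3.06%), against 10.36 to 11.87% on the autosomes, and the median change was 0.09 on X against -0.10 to -0.15 on the autosomes. Under TMM 13.5% of X genes were higher, against 4.42 to 9.21% on the autosomes. Under both scalings 41 X genes were higher (5.02%) and 7 lower (0.86%). Chromosomes IV and V had the largest shares of higher genes under both scalings, 5.94 and 5.65%, and V the largest share of lower genes, 2.99%. These are counts with no test of the difference between chromosomes. Both deleted genes lie on X, and genes of the soma and of the germline differ in how often they lie on X, which is background that was not tested here.

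**Figure D5:**
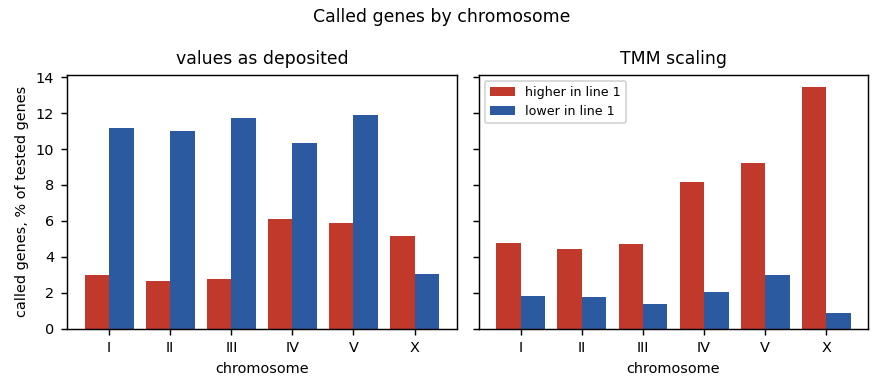
Bars give the percent of tested genes on each chromosome that were called higher (red) or lower (blue) in line 1, with the values as deposited on the left and after TMM scaling on the right. X has the lowest bar of lower genes in both panels, at 3.06% and 0.86%.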

How the data were processed

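Total RNA of whole worms was depleted of ribosomal RNA, given ERCC spike-in RNA and made into TruSeq libraries, per the labels' protocols. The submitters' processing notes name the build ce10 and the tools cutadapt, HISAT2, Bowtie2, HTSeq and DESeq2, with no version or role. The annotation, strand setting and filters are not given in the sources used here. ERCC RNAs are not among the listed genes, so they were not used for scaling.

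The mRNA values were deposited by the authors as a scaled signal per library, under column names that speak of small RNAs. The small RNA values were deposited by the authors as RPM, reads scaled to a common library total. The authors' log2 fold changes and adjusted p-values, per the file headers, were used only for a count of calls. Whole read counts were recovered from the deposited signal and RPM, and 100% of values above 0 were whole within 0.02. Counting error is covered by the depth, but PCR copies were not told apart.

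Genes with a mean of at least 10 were tested with limma 3.58.1 in R 4.3.3 on log2(value + 1), with a mean trend and Benjamini-Hochberg adjustment at 0.05. A fold change on this scale understates that of low genes. Just inside the filter, 101 genes had a mean under 10.5, and just outside it 108 genes had a mean of at least 9.5. TMM factors came from edgeR 4.0.16. edgeR's quasi-likelihood test and DESeq2 1.42.0 were run on the recovered counts as alternatives. The test was tried on simulated data first. Replicates of a strain differed by more than sampling noise (chi-square per degree of freedom 23.4 in N2 and 11.1 in line 1), so none was counted as a repeat of another.

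Members, gene lists and families were chosen with earlier results of these data known. Named genes were meg-3, meg-4, sid-1, rde-11 and hrde-1, the 15 higher and 15 lower called genes with the largest changes and no overlap between groups, and up to 4 called genes of each list and family or, with none called, 2. Up to 8 genes of each combination of mRNA and small RNA calls were added. Genes of adjacent runs, and those called in every fit that left out a library, were named after their values were seen. Of the listed genes 99.3% were matched to RefSeq names of a later build, which was used for names, biotypes, chromosomes and neighbours, and no coordinates or sequences are printed. Of the tested genes 53 share all 4 values with another.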

Additional observations from a re-analysis of the deposited data

How the results depend on the processing

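No named gene that was called as deposited changed direction under any alternative. The uncalled genes hsp-16.41 and hsp-70 were lower in line 1 with all libraries but higher without line 1 replicate 2. The counts of 318 higher and 785 lower genes became 532 and 140 under TMM scaling, 563 and 146 under median-of-ratios scaling, 529 and 138 by edgeR, 830 and 226 by DESeq2, and 193 and 320 without a mean trend. With a mean of at least 1 (12729 genes) they were 298 and 454, and with no filter (27230 genes) 71 and 43. With a mean of at least 50 they were 226 and 889. Pseudocounts of 0.25 and 5 left them at 318 higher and 785 to 795 lower. Leaving out each library gave 17 to 472 higher and 7 to 626 lower genes. The cause of these shifts was not tested. Genes with opposite mRNA and small RNA calls numbered 28 and 35 as deposited and 25 and 33 under TMM.

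The strains share replicate numbers, but nothing says that a number marks a shared batch. Deviations of same-numbered libraries correlated at 0.229, and 2 numbers are too few to show pairing. A fit with the replicate number as a block gave 770 higher and 1727 lower genes.

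Of 145 called named genes 39 lost their call under TMM, 40 by edgeR and 25 by DESeq2. The limits are 2 libraries a strain, 1 mutant strain, and a depth of 21994906 reads in line 1 replicate 1.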
